A study of Macaca mulatta with 29 samples.

Results

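The retinoid X receptors, the peroxisome proliferator-activated receptors and 3 of their cofactors were followed across 29 RNA libraries of rhesus macaque embryonic stem cells. The genes were taken by symbol: RXRA, RXRB and RXRG, PPARA, PPARD and PPARG, and the cofactor genes NCOA1, NCOA3 and NCOR1. Of these 9 symbols, 8 had a row among the 16048 genes of the table, and RXRA was not analysed here. The cells were ORMES-6, a single established rhesus line of pluripotent cells, grown on mouse embryonic fibroblasts that had been made unable to divide, in 5% oxygen. Colonies received methanol, the solvent, or a compound in methanol for 4 weeks. The organotin biocide tributyltin chloride was given at 25 nM and PFOA (perfluorooctanoic acid), used to make fluoropolymers, at 100 nM. Bisphenol A, a building block of polycarbonate, was given at 10 nM. The phthalate DEHP, added to soften plastics, was given at 5 uM, and the herbicide atrazine at 30 uM. Each group had 5 libraries except DEHP, which had 4. Every treatment occupied 1 plate, so a compound and its plate cannot be told apart, and p-values measure only the spread between the wells of these plates. The doses differ between compounds, and no comparison below is matched for dose.

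RXR proteins bind DNA mostly as heterodimers. With PPAR, LXR (the oxysterol receptors) or RAR (the retinoic acid receptors) as partner, they sit at response elements near genes of fatty acid oxidation, cholesterol export or retinoid metabolism. Without ligand many of these dimers hold corepressor complexes built on NCOR1, which recruit histone deacetylase, and ligand binding exchanges them for coactivators of the NCOA family. Tributyltin is a known ligand of RXR and PPARG, and PFOA and metabolites of DEHP are known to act on PPARA, so the question for each compound was whether the receptors and cofactors themselves differed in RNA level.

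Levels are given in FPKM, reads scaled for transcript length and library size. An order of different genes in FPKM therefore rests on the transcript lengths used, which are not given in the sources used here. In genes of few reads the FPKM come in steps of 1 read, from which the relative depth of the libraries was computed. Relative to the deepest library, bisphenol A libraries had 14.2 to 27.2% of its depth and the others 41.2 to 100%. The label of the cells was checked against markers: POU5F1 lay between 371 and 672 FPKM and NANOG between 111 and 147 FPKM in the 29 libraries. Of 10 fibroblast and feeder markers, DCN was listed at 0 in 29 libraries and LUM at 0 in 28, while COL1A1 (32.8 to 71.7 FPKM), COL1A2 (22.8 to 46.7 FPKM), THY1 (19.0 to 31.8 FPKM) and PDGFRB (2.14 to 5.27 FPKM) were present in every library. How much of this RNA came from other cells was not tested. RNA came from all colonies of a well, so fewer cells of a type and less RNA per cell cannot be told apart for any gene below.

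RXRB (human Entrez 6257) was the retinoid X receptor gene measured at a clear level, with a mean of 7.39 FPKM ± 0.742 (SD, n = 29), above 57.3% of all genes in the table. It spanned 5.18 to 8.61 FPKM, from 49 to 368 reads per library. RXRG (6258) was near the limit of detection. The 29 libraries held 18 RXRG reads in all, no library held more than 3, and 15 libraries held none. Since 1 read was worth up to 0.343 FPKM in the shallowest library, the 3 reads that a count of 0 allows correspond to 0.146 to 1.03 FPKM depending on depth. These cells thus gave RNA evidence of RXRB and only stray reads of RXRG.

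Among the PPAR genes the order in FPKM was the same in all 29 libraries: PPARD lay above PPARA, and PPARA lay above PPARG. Recovered reads ran the other way for PPARA (8311 in all) and PPARD (3566 in all). The order of this pair therefore rests on the scaling for transcript length. PPARD (5467), the broadly expressed family member that acts in fatty acid use, had a mean of 6.21 FPKM ± 0.703 (SD, n = 29). PPARA (5465), which drives fatty acid oxidation in liver, had a mean of 2.65 FPKM ± 0.447 (SD, n = 29). PPARD made up 69.3% ± 3.79 (SD, n = 29) of the summed FPKM of the 3 genes, and its group means stayed between 67.9% with tributyltin and 70.8% with vehicle. PPARA had the widest span of the 6 better expressed genes, 2.23-fold between the lowest and highest library. Both extremes were vehicle libraries, which measured 3.90, 2.32, 2.38, 2.52 and 1.75 FPKM for PPARA.

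PPARG (5468), the adipocyte receptor of the family, was found at 0 to 7 reads per library, 51 reads in all, with 6 libraries at 0. The vehicle wells held 0, 1, 1, 3 and 1 reads and the PFOA wells 1, 6, 7, 2 and 0. Scaled to the depth of the deepest library, PFOA had 4.72 reads (95% exact Poisson interval 2.7 to 7.67) and vehicle 1.61 (0.59 to 3.51). These intervals cover counting error alone, pool wells that differ from each other, and overlap. With tributyltin the rate was 2.76 reads (1.26 to 5.23), which overlaps vehicle as well. A fit without the filter on low genes gave PPARG a difference of 0.104 on the log2(FPKM + 1) scale for PFOA (95% interval -0.026 to 0.235, limma adjusted p = 1). Overlap of intervals is not a test of a difference, and the log2(FPKM + 1) scale understates the change of a gene this low. Whether PPARG differed between groups was therefore not settled here, and a gene at this level says little about whether the receptor is made. Of the adipocyte markers, LEP was listed at 0 in 29 libraries and FABP4 in 5, while ADIPOQ (1.3 to 3.36 FPKM) and PLIN1 (1.08 to 2.78 FPKM) were above 0 in all.

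**Figure D1:**
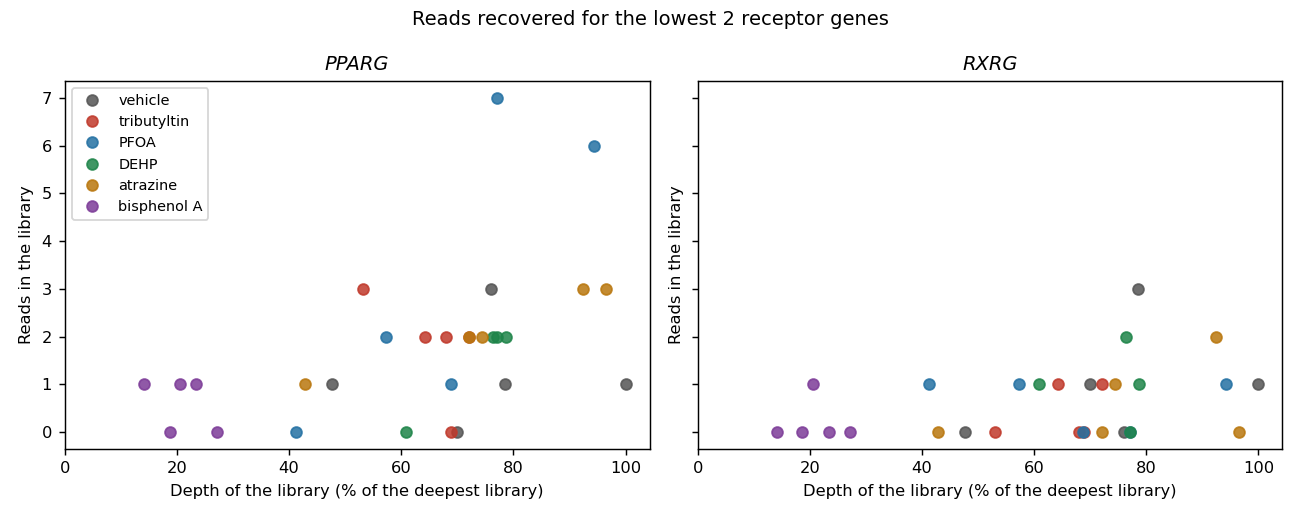
Reads recovered per library (y axis) for PPARG and RXRG against library depth as a percentage of the deepest library (x axis), coloured by treatment. PPARG reaches 6 and 7 reads in PFOA libraries only, and RXRG never exceeds 3.

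The cofactor genes were more abundant than the receptors. NCOR1 (9611), the scaffold of a corepressor complex with histone deacetylase, was the highest of the 8 genes in 29 of 29 libraries, with a mean of 44.6 FPKM ± 4.37 (SD, n = 29), above 88.7% of all genes. The p160 coactivator genes NCOA3 (8202) and NCOA1 (8648), whose products recruit histone acetyltransferases, had means of 17.1 FPKM ± 1.46 and 16.0 FPKM ± 1.44 (SD, n = 29). Recovered reads came to 41983 in all for NCOR1 and 41563 for NCOA3, so the lead of NCOR1 over NCOA3 rests on the scaling for length. NCOA3 lay above NCOA1 in 23 of 29 libraries, and NCOA1 lay above RXRB in all 29. RXRB lay above PPARD in 24 of 29 libraries but in 2 of 5 with bisphenol A. The neighbours NCOA3 and NCOA1, and RXRB and PPARD, thus did not keep a fixed order, and neither did PPARG and RXRG, with PPARG higher in 19 libraries and equal in 3.

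**Figure D2:**
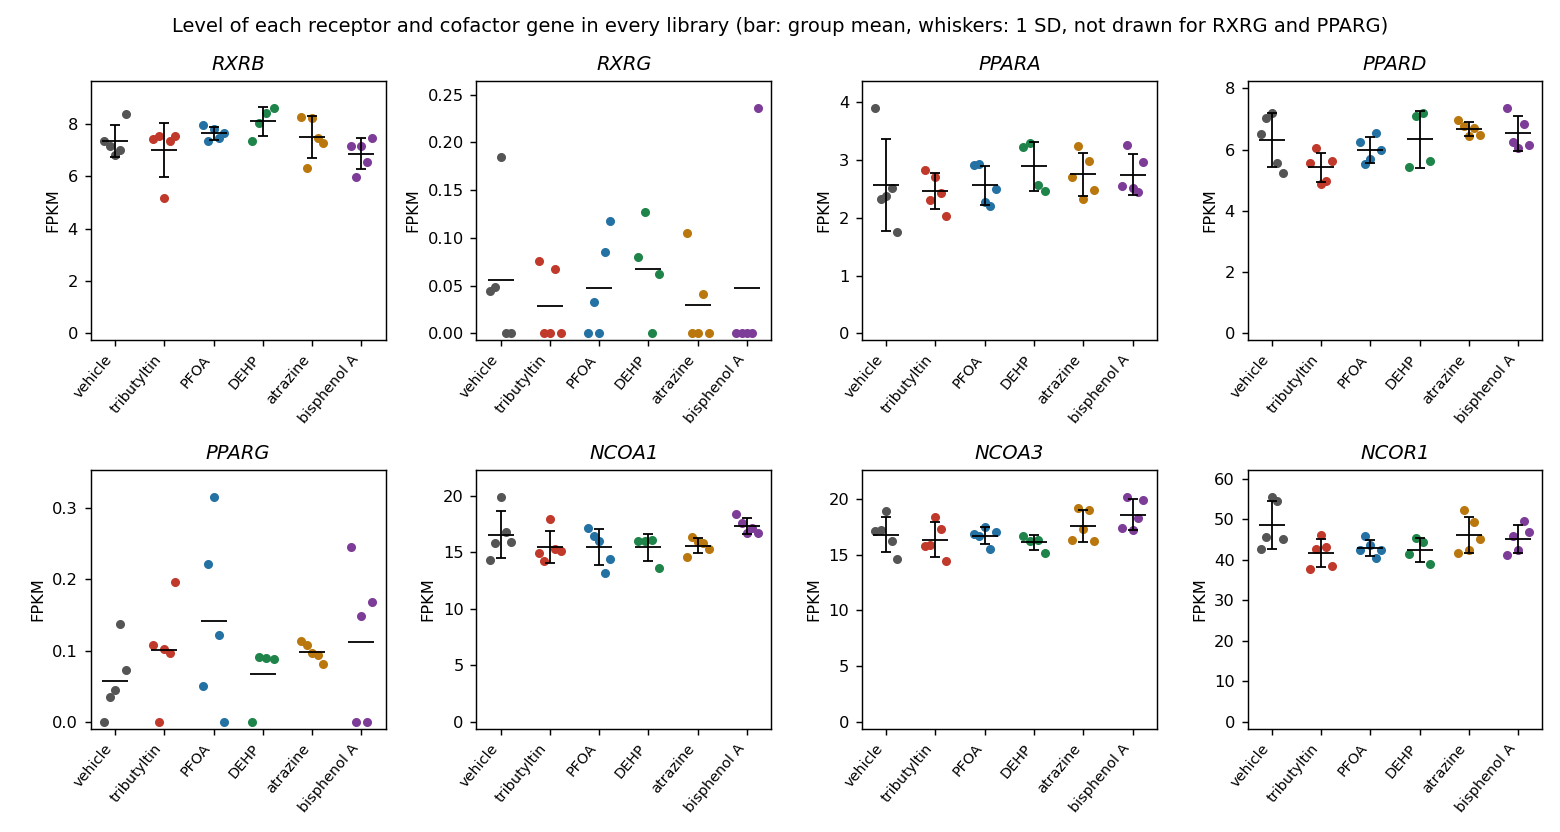
FPKM (y axis, linear, a separate scale for each gene) of the 8 measured genes in each of the 29 libraries, grouped by treatment on the x axis; points are libraries, bars are group means and whiskers 1 SD (none drawn for RXRG and PPARG). NCOR1 sits between 37.7 and 55.6 FPKM, while RXRG and PPARG stay at or under 0.316 FPKM with many points at 0.

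The 6 genes past a filter of a mean of 1 FPKM varied little between wells. The SD within groups, on the log2 scale, was 0.126 for RXRB against a median of 0.178 for genes of like level. The corresponding values were 0.124 against 0.183 for PPARD, 0.116 against 0.159 for NCOA1, 0.104 against 0.16 for NCOA3, 0.122 against 0.163 for NCOR1, and 0.18 against 0.204 for PPARA. Each thus lay below the median for its level. Level was matched on mean FPKM and not on reads, and at the same FPKM a longer transcript holds more reads and less counting error. The part of this in the lower SD was not tested. Counting error alone came to 5.9 to 6.7% for RXRB and 7.9 to 9.5% for PPARD in the deeper groups, and to 12.1 and 15.3% with bisphenol A.

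With tributyltin, none of the 6 tested genes passed the test against vehicle. The test was limma on log2(FPKM + 1), with p-values adjusted over the 11080 genes past the filter and a threshold of 0.05, and it called 138 of them, or 1.25%. NCOR1 and PPARD had an unadjusted p under 0.05, as did 1164 of all genes. All 6 estimates were below 0, with a median of -0.076 against -0.016 for all genes, of which 45.2% were above 0. The signs of RXRB, PPARA and NCOA3 turned when single libraries were left out.

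The largest of these differences was in NCOR1. The vehicle libraries measured 42.6, 45.7, 55.6, 54.6 and 45.2 FPKM and the tributyltin libraries 37.7, 42.8, 46.1, 43.1 and 38.6 FPKM. All 5 tributyltin libraries lay below the vehicle mean of 48.7 FPKM ± 5.92 (SD, n = 5), but the groups overlapped, and vehicle 3 and 4 stood well above the other vehicle libraries. The difference was -0.22 ± 0.08 (SE), a 0.86-fold value of FPKM + 1 with a 95% interval of 0.77 to 0.97, at an unadjusted p of 0.0126 and a limma adjusted p of 0.276. In a fit that blocked on replicate number, which the check of same-numbered wells allowed for this comparison alone, the count over all genes rose from 138 to 420 calls, 3.79% of genes. NCOR1 then had a limma adjusted p of 0.0896 and the other 5 genes stayed above it.

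PPARD gave the next difference. Vehicle libraries measured 6.50, 7.04, 7.20, 5.56 and 5.23 FPKM and tributyltin libraries 5.55, 6.04, 4.87, 4.99 and 5.64 FPKM. The 5 tributyltin values were all below the vehicle mean of 6.31 FPKM ± 0.878 (SD, n = 5), yet vehicle 5 and 4 lay inside their range. The difference was -0.18 ± 0.08 (SE), with a 95% interval of -0.36 to -0.01 and a limma adjusted p of 0.446.

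RXRB depended on 1 well. It measured 7.35, 7.15, 6.81, 7.00 and 8.39 FPKM with vehicle and 7.41, 7.55, 5.18, 7.36 and 7.53 FPKM with tributyltin. Tributyltin 3 was the lowest of all 29 libraries for RXRB and for PPARD, and the highest of its group for NCOA1, NCOA3 and NCOR1. The RXRB difference of -0.07 (95% interval -0.24 to 0.11, limma adjusted p = 0.906) became 0.02 without that library. PPARA, NCOA1 and NCOA3 differed from vehicle by -0.03, -0.08 and -0.03 on the log2 scale, with limma adjusted p of 0.976, 0.824 and 0.956. For these genes the lowest bound of an interval was -0.26 and the highest 0.21, both for PPARA.

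**Figure D3:**
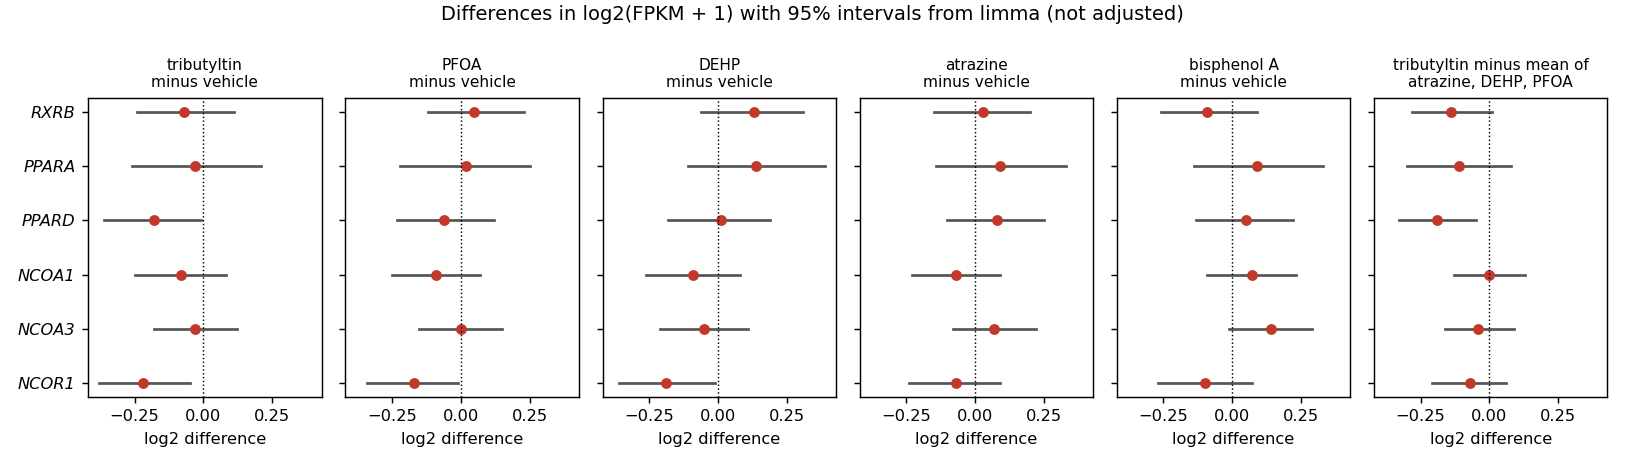
Difference in log2(FPKM + 1) (x axis) of the 6 tested genes (y axis) in 6 comparisons; points are limma estimates and lines their 95% intervals without adjustment for many genes. All intervals lie between -0.38 and 0.39, and those that exclude 0 belong to NCOR1 (tributyltin, PFOA and DEHP against vehicle) and PPARD (both tributyltin panels).

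PFOA gave no call among the 6 genes, where the background was 18 of 11080 genes, or 0.162%. At an unadjusted p under 0.05 there was 1 of the 6, NCOR1, and 641 of all genes. NCOR1 measured 42.5, 45.8, 43.6, 40.4 and 42.5 FPKM with PFOA, 5 of 5 below the vehicle mean and within the vehicle range except for 3 wells under its lowest value. The difference was -0.17 (95% interval -0.34 to -0.01, limma adjusted p = 0.845). PPARA, the receptor that PFOA is known to act on, measured 2.91, 2.93, 2.28, 2.21 and 2.49 FPKM, inside the span of the vehicle wells. Its difference was 0.02, and the 95% interval of -0.22 to 0.25 corresponds to folds of 0.86 to 1.19 in FPKM + 1, which understate the fold in FPKM of a gene at this level. RXRB, PPARD, NCOA1 and NCOA3 differed by 0.05, -0.06, -0.09 and 0.00.

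DEHP also gave no call among the 6 genes, against 1 of 11080 genes, or 0.00903%, over the table. NCOR1 was again the gene of the 6 with an unadjusted p under 0.05, shared by 879 genes. Its DEHP values were 41.4, 45.4, 44.5 and 38.9 FPKM, 4 of 4 below the vehicle mean, and the difference was -0.19 (95% interval -0.36 to -0.01, limma adjusted p = 0.609). The NCOR1 differences for tributyltin, PFOA and DEHP are set against the same 5 vehicle wells and are not independent of each other. RXRB measured 7.34, 8.05, 8.41 and 8.61 FPKM with DEHP, the highest group mean at 8.11 FPKM ± 0.557 (SD, n = 4), with the fourth well the highest of all 29 libraries. It differed from vehicle by 0.13 (95% interval -0.06 to 0.31, limma adjusted p = 0.76). PPARA had its highest group mean with DEHP as well, 2.89 FPKM ± 0.428 (SD, n = 4), at a difference of 0.14 and the widest interval of all, -0.11 to 0.39. PPARD, NCOA1 and NCOA3 differed by 0.01, -0.09 and -0.05.

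With atrazine, 0 of the 6 genes were called by limma and none had an unadjusted p under 0.05. Over all genes the counts were 21 called, 0.19%, and 762 at an unadjusted p under 0.05. The 6 differences lay between -0.07 for NCOR1 and 0.09 for PPARA. PPARD was tightly grouped at 6.97, 6.77, 6.44, 6.71 and 6.47 FPKM. It lay above the vehicle mean in 5 of 5 wells, and the difference of 0.08 had a 95% interval of -0.10 to 0.25.

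Bisphenol A was measured at the lowest depth. Limma called 0 of the 6 genes and 0 of 11080 genes, 0%, and at an unadjusted p under 0.05 there were none of the 6 and 573 of all genes. NCOA3 came closest, with 17.4, 20.2, 17.2, 18.3 and 19.9 FPKM against 17.1, 17.2, 18.9, 16.2 and 14.6 FPKM with vehicle. The 5 bisphenol A wells lay above the vehicle mean of 16.8 FPKM ± 1.59 (SD, n = 5), but vehicle 3 was higher than 3 of them. The difference was 0.14 (95% interval -0.01 to 0.29), at an unadjusted p of 0.0595 and a limma adjusted p of 0.943. NCOA1 was above the vehicle mean in 5 of 5 wells too, at a difference of 0.07. The receptors RXRB, PPARA and PPARD differed by -0.09, 0.09 and 0.05, and NCOR1 by -0.10.

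Tributyltin was also set against the mean of the atrazine, DEHP and PFOA groups, an estimate that does not use the vehicle means, although the vehicle wells enter the shared spread of the fit. None of the 6 genes was called, against 115 of 11080 genes, or 1.04%. PPARD was the 1 gene of the 6 with an unadjusted p under 0.05, shared by 1238 genes. It averaged 5.42 FPKM ± 0.483 (SD, n = 5) with tributyltin and 6.34 FPKM over the other 3 groups, with 5 of 5 tributyltin wells below that mean. The difference was -0.19 ± 0.07 (SE), a 0.88-fold value of FPKM + 1 with a 95% interval of 0.79 to 0.97, an unadjusted p of 0.011 and a limma adjusted p of 0.239. The groups still overlapped: the highest tributyltin well, at 6.04 FPKM, lay above PFOA wells of 5.52, 5.69 and 5.98 FPKM and DEHP wells of 5.44 and 5.62 FPKM. Against vehicle, the estimate of NCOR1 was below 0 for every compound and called for none. Its unadjusted p was under 0.05 there for tributyltin, PFOA and DEHP. In the present contrast NCOR1 differed by -0.07 (95% interval -0.21 to 0.06, limma adjusted p = 0.753). RXRB differed by -0.14 (limma adjusted p = 0.478), PPARA by -0.11, NCOA3 by -0.04 and NCOA1 by 0.00.

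A test for any difference among the 6 groups called 139 of 11080 genes, 1.25%, with 1218 at an unadjusted p under 0.05, and it gave 0 of the 6 genes at either threshold. The limma adjusted p ran from 0.507 for PPARD to 0.953 for PPARA. Over all 36 gene and comparison pairs the 95% intervals lay between folds of 0.77 and 1.31 of FPKM + 1. The lowest bound belongs to NCOR1 with tributyltin and the highest to PPARA with DEHP.

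The balance of corepressor to coactivator RNA can be read from NCOR1 over the sum of NCOA1 and NCOA3. This ratio of FPKM averaged 1.35 ± 0.102 (SD, n = 29). Its group means were 1.46 ± 0.119 with vehicle, 1.39 ± 0.0781 with atrazine, 1.35 ± 0.0625 with DEHP, 1.34 ± 0.0646 with PFOA, 1.31 ± 0.0732 with tributyltin and 1.26 ± 0.0959 with bisphenol A. Vehicle had the highest mean and bisphenol A the lowest. The vehicle wells spanned 1.36 to 1.66 and the bisphenol A wells 1.15 to 1.41, so the ends of the order overlapped, and neighbouring groups differed by less than 1 SD. No test was run on this ratio, which was a description chosen with the values of its genes known.

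Variation between wells of the same group was compared next. Over the 29 libraries, after subtracting each group's mean log2(FPKM + 1), NCOA3 and NCOR1 had a Pearson r of 0.63 and a Spearman rho of 0.58. Permutation of libraries within groups gave p of 0.00303 and 0.00722, and adjusted p of 0.0123 and 0.0271 over the 15 pairs of the 6 genes. Without the 2 libraries farthest from the median r was 0.60, and without bisphenol A 0.63. NCOA1 and NCOR1 had r = 0.60 and rho = 0.56 (permutation p 0.00113 and 0.00292, adjusted 0.0123 and 0.0206), with r = 0.47 without the 2 farthest libraries and 0.70 without bisphenol A. For NCOA1 and NCOA3 r was 0.52 and rho 0.45 (permutation p 0.00875 and 0.0202, adjusted 0.0238 and 0.0453), with r = 0.33 without the 2 farthest libraries and 0.60 without bisphenol A. The sign was positive in all 6 groups for NCOA3 and NCOR1, and in 5 of 6 for the other 2 pairs, with the bisphenol A wells negative for both. The share of all gene pairs in the table that reach such r was not computed. Genes outside the set, picked as close in pattern, had higher r within groups: 0.88 for EIF4G3 with NCOR1 and 0.89 for ASH1L with NCOA3. The relations between members are thus not shown to be particular to these genes.

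RXRB deviated in the opposite direction in the pooled libraries. Its r was -0.62 with NCOA3 and its rho -0.50 (permutation p 0.00278 and 0.0186, adjusted 0.0123 and 0.0453), with r = -0.50 without the 2 farthest libraries and -0.66 without bisphenol A. With NCOR1 r was -0.57 and rho -0.60 (permutation p 0.00329 and 0.00269, adjusted 0.0123 and 0.0206), -0.46 without the 2 farthest libraries and -0.60 without bisphenol A. With NCOA1 r was -0.46 and rho -0.43 (permutation p 0.0165 and 0.0212, adjusted 0.0353 and 0.0453), and r came to -0.30 without the 2 farthest libraries, so that pair leaned on them. PPARA followed NCOA3, with r = 0.55 and rho = 0.56 (permutation p 0.00954 and 0.00413, adjusted 0.0238 and 0.0206). Without the 2 farthest libraries that r was 0.55, and without bisphenol A 0.50. RXRB and PPARA had r = -0.42 and rho = -0.42 (permutation p 0.0252 and 0.0348, adjusted 0.0473 and 0.0653). PPARD had r between 0.01 and 0.09 with the other 5 genes. Values of 1 library share its RNA, its amplification and its scaling to library size, and the part of these in the relations was not tested. The sign of RXRB with NCOA3 and with NCOA1 was negative in 5 of 6 groups and positive in the PFOA wells, and with NCOR1 it was negative in all 6. The permutations treat wells as exchangeable within a group, but same-numbered wells of tributyltin and vehicle deviated together. Part of the same-numbered pairs of the other compounds did so too. Their r with vehicle ran from -0.168 to 0.449 for PFOA, 0 to 0.566 for DEHP, -0.127 to 0.523 for atrazine and -0.255 to 0.366 for bisphenol A. The permutation p-values may therefore be too small. Group means and replicate numbers were also removed together, as a description chosen after seeing the data. Then r was -0.55 for RXRB with NCOA3, -0.52 with NCOR1 and -0.44 with NCOA1. It was 0.63 for NCOA3 with NCOR1, 0.76 for NCOA1 with NCOR1, 0.45 for NCOA1 with NCOA3 and 0.70 for PPARA with NCOA3. After median-of-ratios scaling the r of RXRB was -0.62 with NCOA3 and -0.59 with NCOR1.

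**Figure D4:**
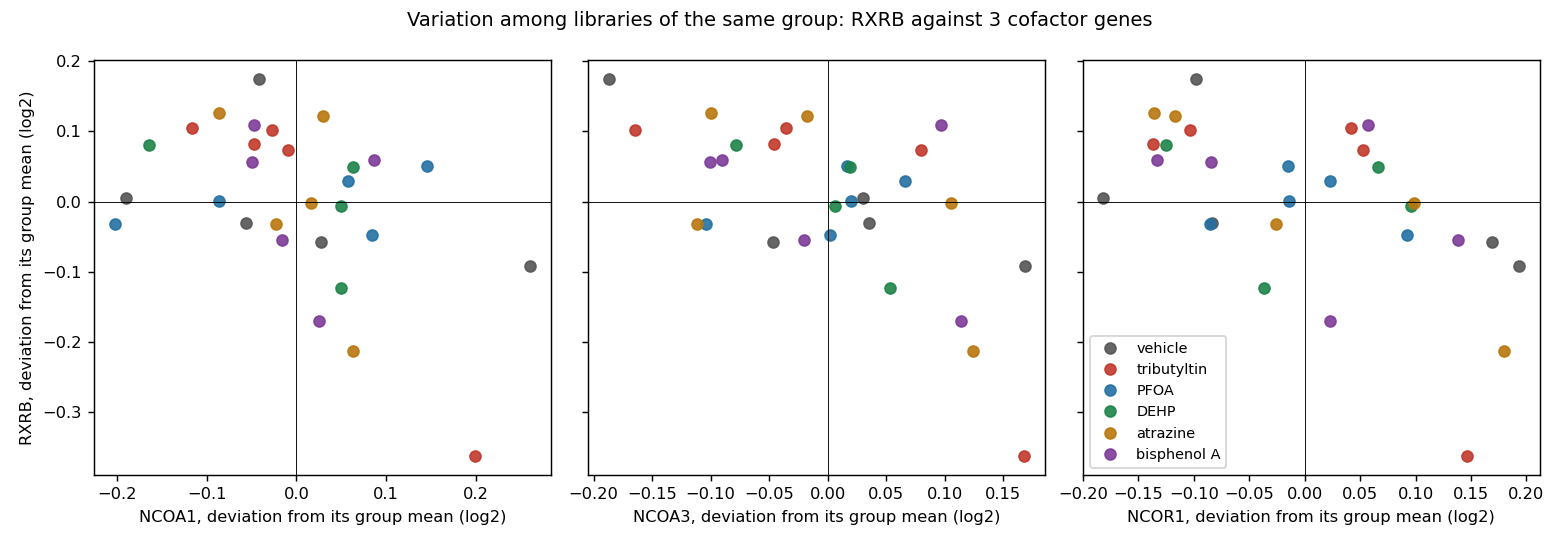
Deviation of RXRB from its group mean (y axis, log2) against that of NCOA1, NCOA3 and NCOR1 (x axes, log2); each point is 1 of 29 libraries, coloured by treatment. Points run from upper left to lower right, with r of -0.46, -0.62 and -0.57, and the lowest point in each panel is tributyltin 3.

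For each tested gene, the genes of most similar pattern were taken as those with the highest Pearson r over the 29 libraries, as a description. PPARA was closest to SLC16A7, a monocarboxylate transporter gene (r = 0.90), and ATP6V0D2, a subunit gene of the vacuolar proton pump (r = 0.89). NCOR1 was closest to EIF4G3 (r = 0.89) and PEAK1 (r = 0.87), NCOA1 to ZMYM4 (r = 0.87) and NF1 (r = 0.85), and NCOA3 to PRKAA2 and ASH1L (both r = 0.86). For RXRB the closest were IGFBP4 and ST3GAL4 (both r = 0.75), but without the 2 libraries farthest from the median IGFBP4 came to 0.38 and ST3GAL4 to 0.60. Tributyltin 3 was also the lowest of all libraries for both. PPARD had the weakest likeness, 0.64 with BHLHE41 and 0.62 with CD109, so no gene tracked it closely.

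The rest of the pathway was described with 6 lists. Among partner receptors of RXR, 7 of 13 listed genes were tested, and tributyltin gave 1 call, RARB, a retinoic acid receptor gene that is itself switched on by retinoic acid. It rose from 1.15 FPKM ± 0.383 to 2.33 FPKM ± 0.332 (SD, n = 5 each), a difference of 0.64 (limma adjusted p = 0.00275), and this call was lost in a fit of the 2 groups alone (limma adjusted p = 0.0533). RARA and NR1H2, which encodes LXR beta, had the highest means of this list, 6.44 and 4.65 FPKM, of the same order as RXRB and PPARD. None of 14 tested coactivator genes and none of 9 tested corepressor genes was called by limma. The blocked fit over all groups called the coactivator gene CREBBP lower, and the blocked fit of the 2 groups alone called no coactivator gene. Of these lists NCOA4 (105 FPKM) and EP300 (75.5 FPKM) were the highest coactivator genes and SIRT1 (50.7 FPKM) and TBL1XR1 (40.3 FPKM) the highest corepressor genes. The median differences with tributyltin were 0.16 for the partners, 0 for coactivators and -0.07 for corepressors.

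Among target genes the calls with tributyltin were all higher. Over all genes 1.25% were called, 22 of the 138 calls being higher and 116 lower, and with lists this short the counts below are given as a description. Of 44 listed PPAR targets, 27 were tested and 2 rose, SLC25A20 and ACSL3, with none lower and a median of -0.03. SLC25A20, the mitochondrial carnitine carrier, measured 2.06 FPKM ± 0.418 with vehicle and 4.42 FPKM ± 0.246 with tributyltin (SD, n = 5 each), a difference of 0.83 (limma adjusted p = 8.78e-05). ACSL3, an acyl-CoA synthetase of lipid droplets, rose from 42.7 FPKM ± 2.92 to 62.7 FPKM ± 6.52 (limma adjusted p = 0.0014). Both blocked fits added UCP2. FABP5 (319 FPKM) and HADHA (96.1 FPKM) had the highest means of the list and did not pass.

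Of 11 listed LXR targets, 8 were tested and ABCA1, the cholesterol exporter, rose. It measured 13.6, 10.9, 17.2, 15.9 and 14.3 FPKM with vehicle and 51.7, 51.9, 58.4, 49.6 and 56.2 FPKM with tributyltin, with no overlap, a difference of 1.84 (limma adjusted p = 5.86e-09). Tributyltin 3, the well lowest in RXRB, was the highest in ABCA1. APOE (142 FPKM) and PLTP (37.8 FPKM) were the most abundant genes of this list and did not pass. Of 13 listed RAR targets, 6 were tested and 2 rose, RARB and CYP26A1, the retinoic acid hydroxylase, which went from 5.99 FPKM ± 0.943 to 10.6 FPKM ± 1.48 (SD, n = 5 each, difference 0.73, limma adjusted p = 7.13e-05). CRABP2 (72.6 FPKM) and STRA6 (10.2 FPKM) led this list in level and did not pass. The medians were 0.18 for LXR targets and 0.25 for RAR targets, against -0.016 for all genes.

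Against the mean of atrazine, DEHP and PFOA the same 5 genes were called, and so were SREBF1, the LXR-responsive lipogenic regulator (difference 0.36, limma adjusted p = 0.0372), and DHRS3, a retinaldehyde reductase (difference 0.50, limma adjusted p = 0.035). Both calls were lost in several alternatives, with limma adjusted p up to 0.14 for SREBF1 without tributyltin 1 and up to 0.184 for DHRS3 without tributyltin 5. No gene of the 6 lists was called for PFOA, DEHP, atrazine or bisphenol A against vehicle. The test over all groups also called TXNIP, which is on the PPAR list (limma adjusted p = 0.014). Its group means ran from 39 FPKM ± 3.06 with tributyltin to 58.6 FPKM ± 8.32 with bisphenol A (SD, n = 5 each). Vehicle had 43 FPKM ± 4.57 (SD, n = 5). The summed FPKM of 10 fibroblast markers, 5 of them past the filter, was 99.8 to 133 in the tributyltin wells and 88.6 to 129 with vehicle, and that of 6 mesoderm markers 29 to 32.5 against 30.7 to 42. Of the mesoderm markers KDR had the highest median, 22.9 FPKM, while T was listed at 0 in 10 libraries and MESP1 in 20. The sum of 4 neuroectoderm markers was 144 to 170 with tributyltin against 158 to 209 with vehicle. For 6 endoderm markers it was 4.12 to 8.07 against 3.68 to 5.93. Whether such cells were present, and their part in the calls, was not tested.

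**Figure D5:**
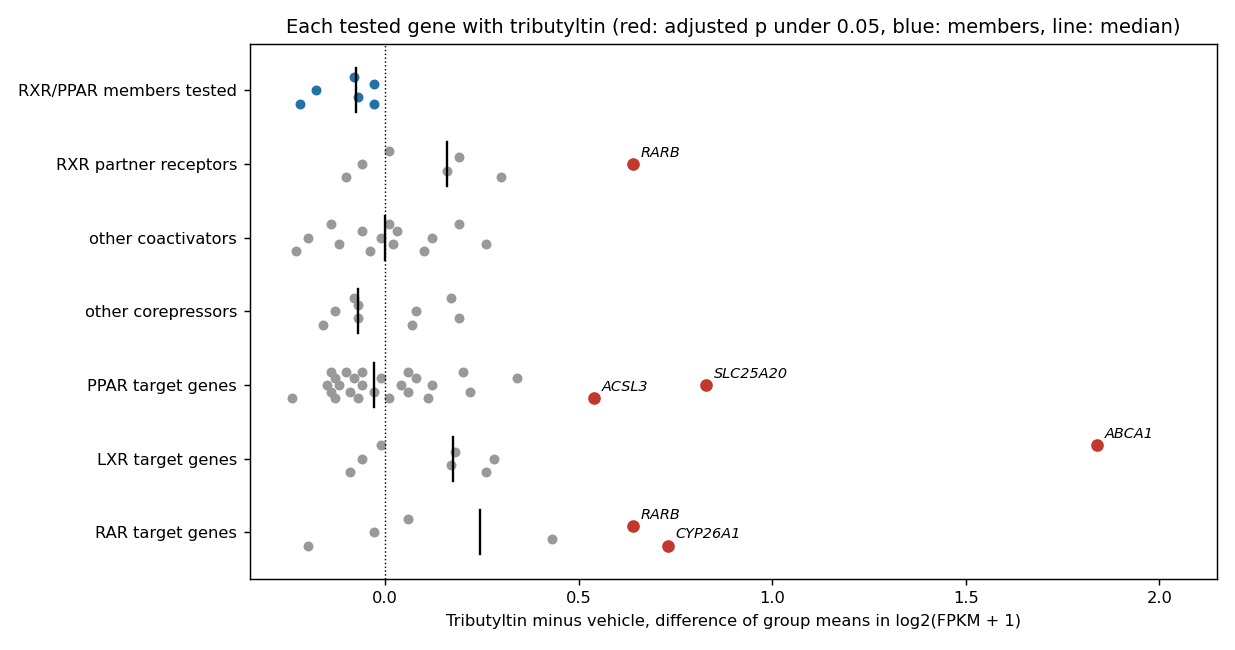
Difference in log2(FPKM + 1) between tributyltin and vehicle (x axis) of each tested gene, by list (y axis); red points passed the limma threshold, blue points are the 6 receptor and cofactor genes, black lines are medians. The receptor and cofactor genes lie between -0.22 and -0.03, while ABCA1 reaches 1.84.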

How the data were processed

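The authors deposited 1 table of FPKM values, scaled by them for length and depth, for 29 libraries. Per the labels' protocols, libraries were made from 100 ng of RNA by Ribo-SPIA amplification and read as 50 nt single ends. TopHat2 2.1.1, SAMtools and Cuffdiff 2.2.1 and the mouse build GRCm38.p5, with no role, are named per the submitters' processing notes; the rhesus build and the handling of feeder reads are not given in the sources used here. Symbols and Entrez identifiers in the table are human.

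Groups came from the library titles. Values were tested as log2(FPKM + 1) with limma 3.58.1 in R 4.3.3 (two-sided, mean-variance trend, all 6 groups in 1 fit, Benjamini-Hochberg over the 11080 genes whose mean reached 1 FPKM, threshold 0.05). A difference on this scale understates the change of low genes. Relative depth came from the steps of 2025 low genes, of which 94.7% were whole multiples within 0.05; reads are known only up to a common factor, come from amplified cDNA without molecular identifiers, and their intervals cover counting error only. Both procedures were tested on simulated data. The members, lists and tests were chosen with earlier results of these data known. The named genes are all members, every listed gene called in a comparison, the 2 highest genes of each list, and the 2 nearest patterns of each tested member. The labels give replicate numbers without saying what they share. Deviations of same-numbered wells correlated at over 0.1 in all 5 pairs only for tributyltin and vehicle (0.175 to 0.654), so the block is reported beside that comparison. Among the alternatives the block was also run for the other comparisons, for which this check did not allow it. Alternatives were another pseudocount, 2 filters, 2 scalings, fits on fewer groups, the block, library weights, no trend and leaving out each library.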

Additional observations from a re-analysis of the deposited data

Results flagged for a closer look

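In groups of 4 or 5 libraries, a library was marked where its gap to the nearest other value was a large part of the group's range. Of 48 groups of values, 5 were marked. Chance alone marks about 1 in 20 for continuous values, a rate that does not apply to RXRG and PPARG, with few reads and ties at 0. RXRB measured 5.18 FPKM in tributyltin 3, with the other 4 wells at 7.36 to 7.55 FPKM. NCOA1 measured 13.6 FPKM in DEHP 4, with the others at 16.0 to 16.1 FPKM. The remaining marks are in genes of a few reads: RXRG at 0.185 FPKM in vehicle 3 (others 0 to 0.0485 FPKM), RXRG at 0.236 FPKM in bisphenol A 5, where the other wells were listed at 0, and PPARG listed at 0 in DEHP 1 (others 0.0885 to 0.0911 FPKM).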

How the results depend on the processing

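No receptor or cofactor gene was called in any of the 1398 alternative values of the 36 gene and comparison pairs. The sign changed in 44 of them, in 10 pairs, always where the estimate was smaller than its SE. The lowest limma adjusted p was 0.0574, for PPARD in tributyltin against the mean of 3 compounds with library weights. With the replicate block over all groups, NCOR1 for tributyltin against vehicle had a limma adjusted p of 0.0896. It was 0.0964 with the block in those 2 groups alone, an alternative added after seeing the data. No call among the 6 genes changed in any comparison.

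Counts over all genes depended on the fit. For tributyltin they ranged from 71 (without vehicle 2) to 157 when 1 library was left out, and from 44 (only the groups compared) to 420 (replicate block). For PFOA the counts were 7 to 24 without 1 library and 8 to 63 otherwise, for DEHP 0 to 2 and 0 to 74, for atrazine 12 to 24 and 6 to 84, for bisphenol A 0 to 1 and 0 to 3. For tributyltin against 3 compounds they were 53 to 133 and 73 to 371, and for any difference 88 to 182 and 92 to 543. The highest counts for PFOA, atrazine, bisphenol A and any difference came from the replicate block, which the check of same-numbered wells did not allow there. Single libraries that moved a count by over 1.5 times were vehicle 2 and 3 for tributyltin, these and PFOA 1, 2, 4 and 5 for PFOA, vehicle 2 and atrazine 4 for atrazine, bisphenol A 2 for bisphenol A, and tributyltin 1 and 2 for any difference. Against 3 compounds they were tributyltin 1, 2, 4 and 5, atrazine 4, DEHP 3 and PFOA 3, and the single DEHP call was lost or joined by others without most libraries. The cause was not tested. PPARA could not be tested with a filter of 5 FPKM, and a share of RXRA was not computed. Depth limits PPARG and RXRG, which were under the filter and were tested only without it.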
